A study of Mus musculus with 8 samples.

Results

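The miR-130 and miR-301 family was followed through small RNA libraries of mouse liver and liver mitochondria from animals on 2 diets. The members were the 4 names miR-130a-3p, miR-130a-5p, miR-130b-3p and miR-301a-3p, taken by name out of 862 names listed in the 8 libraries, and all 4 had reads in at least 1 library. Male wild-type C57BL/6J mice of 8 weeks, housed singly, were fed ad libitum (AL) or put under caloric restriction (CR) for 12 weeks, with a cut of 20% in the first week and of 40% for the last 11. For whole liver each diet has a single library, a pool of 3 RNA samples in equal amounts, and mitochondria, isolated as mitoplasts by differential centrifugation, have 3 libraries per diet. Mitoplasts are mitochondria stripped of their outer membrane. Nothing in the labels ties each mitochondrial replicate to its own animal, and a p-value here measures only how far these libraries scatter, which may be technical. Levels are RPM, reads per 1000000 reads summed over the names listed in a library.

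MicroRNAs are cut as a duplex from a hairpin precursor, and the strand that enters Argonaute guides it to messenger RNAs through the seed, bases 2 to 8 of the mature strand. In this family the 3p arm is the usual guide, and its members share 1 seed and hence most predicted targets. miR-130a and miR-130b are known to repress the adipogenic nuclear receptor PPAR gamma, miR-130b also the LDL receptor and the cholesterol exporter ABCA1, miR-130a the antiangiogenic homeobox genes GAX and HOXA5 in endothelium, and miR-301a the NF-kappaB inhibitor NKRF.

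The mature strands are shown with the seed in capitals, 5′ to 3′, since the seed defines the family and the 5p arm does not carry it.
miR-130a-3p: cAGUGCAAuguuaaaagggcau
miR-130b-3p: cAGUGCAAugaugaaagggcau
miR-301a-3p: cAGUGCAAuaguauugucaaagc
miR-130a-5p: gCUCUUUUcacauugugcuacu

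The 3 strands with the seed AGUGCAA were the only ones among the 862 listed names (0.348%) with these letters at bases 2 to 8. Counted from 1 at the 5′ end, miR-130a-3p and miR-130b-3p differed by U11A and A13G, and 20 of their 22 bases were identical. miR-301a-3p shared its first 9 bases with miR-130a-3p and 12 of the 22 compared. The deposited sequences of all 4 members were the same as in RefSeq (GRCm38.p6). RefSeq holds 7 mature mouse names with this seed, and miR-130c, miR-721, miR-6341 and miR-6389 among them were not listed in any of the 8 libraries. Neither were miR-301b-3p and miR-301b-5p. RefSeq as used here has no mature entry for miR-301b-3p, so the 7 leave it out. The Mir301b hairpin does hold the run AGUGCAA. With 22 or 23 bases per member, RPM needs no correction for length between members. Whether strands of different sequence are captured equally was not tested.

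The hairpin that gives both arms of miR-130a is printed with the 5p and then the 3p arm in capitals, because the results turn on the balance between them.
Mir130a: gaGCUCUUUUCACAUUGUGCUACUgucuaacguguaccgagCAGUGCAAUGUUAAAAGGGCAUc

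Mir130a lies on chromosome 2 at 84741115 to 84741178 (GRCm38, minus strand) and overlaps no other gene in GENCODE M21. The nearest genes are Gm19426 on the same strand, 991 bases away, and Ypel4 on the other strand, 2460 bases away. Mir301 (miR-301a) lies on chromosome 11 at 87113004 to 87113089 (plus strand) in an intron of Ska2, a gene of the spindle and kinetochore complex. Mir130b lies on chromosome 16 at 17124061 to 17124142 (minus strand) in an intron of 2610318N02Rik, 257 bases from Mir301b on the same strand. The 3 hairpins are thus from 3 chromosomes.

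The libraries held 2431564 (AL) and 3242002 (CR) reads in the whole-liver pools and 1070762 to 1577691 reads in the mitochondrial libraries, so 1 read was worth 0.308 to 0.934 RPM. Hepatocyte miRNAs took 463222 to 552258 RPM of the pools and 507507 to 702317 RPM of the mitochondrial libraries (miR-122-5p, miR-192-5p, miR-194-5p and miR-148a-3p summed), the most of any cell type list checked. The tables hold miRNAs alone, so the purity of the mitochondria could not be checked here. CR mitochondrial replicate 2 stood apart in several names. The islet miRNA miR-375-3p stood at 63.4 RPM there against 0.913 to 3.74 RPM elsewhere, and the pancreas miRNA miR-217-5p at 33.0 against 0 to 2.06 RPM. Its miR-122-5p was the lowest of the mitochondrial libraries, at 251755 RPM against 378919 to 580803 RPM. Without CR replicate 2 the miR-130a log2 fold changes reported as 0.18 and -0.20 (diet) and 0.84 and 2.02 (fraction) were 0.14, -0.18, 0.82 and 2.05, with the same calls.

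In liver the family was almost entirely miR-130a. Of 983 reads with the AGUGCAA seed over the 8 libraries, 971 (98.8%) were miR-130a-3p, and its share lay between 97.4% and 100% in each library. miR-130a-3p ranked between 90 and 146 by level within the libraries, where 462 to 604 names were listed, and its partner arm miR-130a-5p between 155 and 297. miR-130b-3p and miR-301a-3p stood at 0 to 2 reads in every library and did not pass the filter on low values (at least 1 RPM in at least 3 libraries). Of the 4 members, 2 were therefore tested in the main fits, among 417 names.

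miR-130a-3p, the guide strand of the family, gave 119 reads in the AL pool, a level of 48.9 RPM, and 165 reads (50.9 RPM) in the pool from CR livers. The AL mitochondrial libraries held 113.5, 67.6 and 78.7 RPM, with a mean of 86.6 ± 24.0 RPM (SD, n = 3). The CR mitochondrial libraries held 109.9, 102.0 and 79.4 RPM, with a mean of 97.1 ± 15.9 RPM (SD, n = 3). All 6 mitochondrial libraries lay above both pools, while the AL and CR libraries overlapped, with AL replicate 1 the highest of all. Of the 417 names, 5.04% lay higher in all 3 CR than in all 3 AL mitochondrial libraries and 13.9% lower, and neither miR-130a arm was among them.

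The other strand, miR-130a-5p, gave 9 reads (3.70 RPM) in the AL pool and 15 reads, or 4.63 RPM, under CR. It reached 14.8, 21.9 and 30.2 RPM in AL mitochondria (mean 22.3 ± 7.74 RPM, SD, n = 3) and 20.0, 17.7 and 17.7 RPM in CR mitochondria (mean 18.5 ± 1.29 RPM, SD, n = 3). Again every mitochondrial library lay above both pools, and the CR libraries fell inside the range of the AL libraries.

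**Figure D1:**
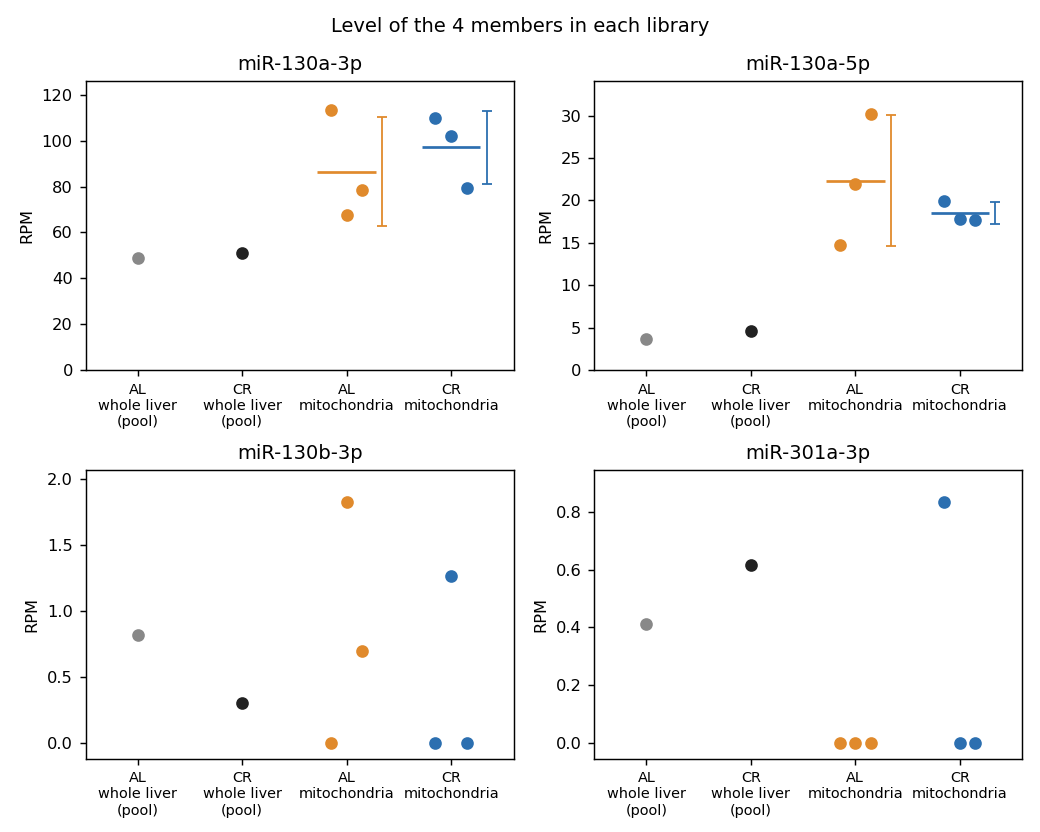
Level (RPM, linear axes that differ between panels) of the 4 members in each library; points are libraries, and for the miR-130a arms lines are means and bars 1 SD of 3 mitochondrial libraries. Both miR-130a arms lie higher in all 6 mitochondrial libraries than in the pools, whereas miR-130b-3p and miR-301a-3p rest on 0 to 2 reads per library.

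The main question of the series is whether the diet changes mitochondrial miRNAs. Neither arm of miR-130a passed the test for diet. By limma-trend on log2(RPM + 1), the CR minus AL log2 fold change of miR-130a-3p was 0.18 (SE 0.36, 95% interval -0.56 to 0.93, adjusted p = 0.882). That of miR-130a-5p was -0.20 (SE 0.43, 95% interval -1.10 to 0.69, adjusted p = 0.888), and it stood at 0.00 with TMM factors and 0.02 with DESeq2 size factors, so no direction can be read from it. As folds the intervals ran from 0.676 to 1.91 and from 0.467 to 1.61. The median of all tested names was -0.17 on this scale and 0.01 with TMM factors. Over all names 2 of 417 (0.48%) passed an adjusted p of 0.05 in this comparison, 1 higher (0.24%) and 1 lower (0.24%), and 53 (12.7%) had an unadjusted p below 0.05. The count of 2 became 0 without AL replicate 2, CR replicate 1 or CR replicate 2, 1 without AL or CR replicate 3, and 5 without AL replicate 1. In bulk libraries of this kind, fewer cells of a type and less RNA per cell cannot be told apart.

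In whole liver the diets were represented by 1 pool each, so the ratios compare 2 libraries and have no test. Their intervals are exact 95% Clopper-Pearson intervals for counting error only. The CR to AL ratio was 1.04 (0.817 to 1.33) for miR-130a-3p and 1.25 (0.513 to 3.24) for miR-130a-5p. Among 243 names that reached 10 RPM in either pool, CR exceeded AL by 2-fold or more in 5.35% and AL exceeded CR by as much in 7.82%. miR-130a-3p was the member among the 243, and its interval excluded a 2-fold difference in either direction. The interaction of diet and fraction, fitted with limma-trend over all 8 libraries, was 0.13 (SE 0.73) for miR-130a-3p and -0.46 (SE 0.91) for miR-130a-5p on the log2 scale, both with an adjusted p of 0.998. In that comparison 0 of 417 names (0%) passed, with 5 (1.2%) at an unadjusted p below 0.05, and edgeR, DESeq2 and limma-voom also called 0. Each pool is alone in its group there and is assumed to vary like the mitochondrial libraries.

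The fractions differed more than the diets. miR-130a-5p was higher in mitochondria than in whole liver, by a log2 fold change of 2.02 (SE 0.43, adjusted p = 0.00125, limma-trend with diet as a term), a 4.06-fold change on the RPM + 1 scale (95% interval 2.19 to 7.53). miR-130a-3p was 1.79-fold higher as fitted (log2 fold change 0.84, SE 0.34) and missed the threshold with an adjusted p of 0.0695. Whole liver has only 1 pool per diet, so these fits assume that the pools vary like the mitochondrial libraries. Pooling is stated for whole liver only and cannot be told apart from the fraction. Over all names 134 of 417 (32.1%) passed, 44 higher (10.6%) and 90 lower (21.6%), and miR-130a-5p was number 19 of the 44 by size. In 62 of the 417 names (14.9%), both arms among them, all 6 mitochondrial libraries lay above both pools, and in 27.1% all 6 lay below.

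The scale matters for miR-130a-3p. Between the fractions, the 417 names had a median log2 fold change of -0.31 on the deposited scale and 0.01 with TMM factors, under which 75 names were called higher and 67 lower. miR-130a-3p then had a log2 fold change of 1.26 and passed (adjusted p = 0.00650), as it did with DESeq2 size factors (0.0112) and with miR-122 left out of the total (0.0125). miR-130a-5p passed on each of these scales too, at 2.28 to 2.48. Within AL alone miR-130a-5p had a log2 fold change of 2.25 (adjusted p = 0.0322) and within CR alone 1.79 (adjusted p = 0.0893), each with 3 mitochondrial libraries against 1 pool. The lone pool is assumed there to vary like the mitochondrial libraries, and whether the diets differ in this change is the interaction given above.

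**Figure D2:**
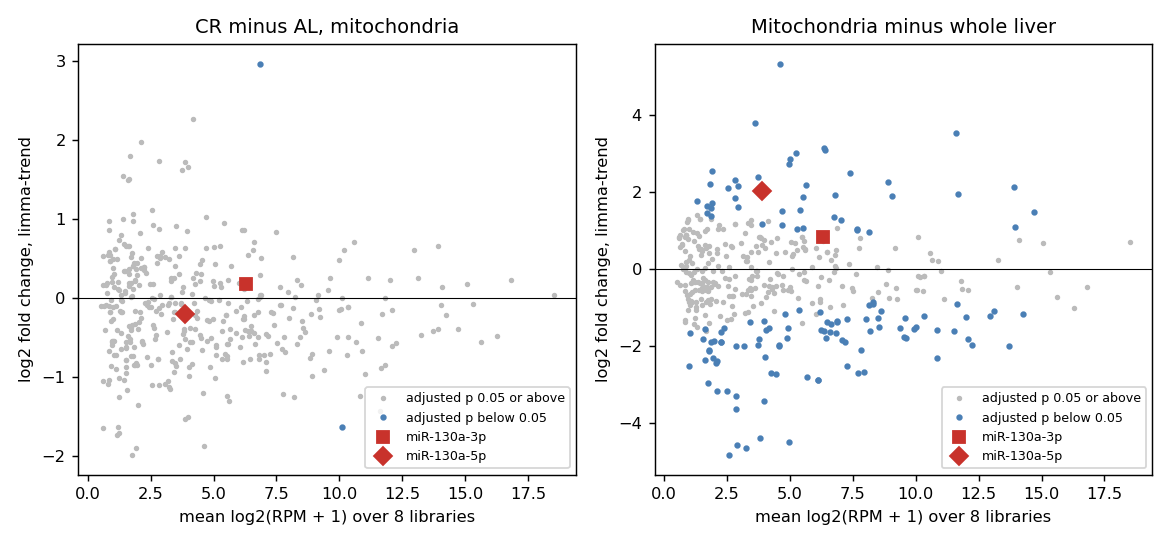
Log2 fold change (limma-trend) against mean level for the 417 tested names, CR minus AL in mitochondria on the left and mitochondria minus whole liver on the right, with the miR-130a arms in red. Both arms sit close to 0 for diet (0.18 and -0.20), and for fraction miR-130a-5p (2.02) lies among the names with an adjusted p below 0.05 while miR-130a-3p (0.84) does not.

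Both arms come from 1 hairpin, and the share of each within a library does not depend on library scaling. The 5p arm made up 7.03% of miR-130a reads in the AL pool (9 of 128, 95% Clopper-Pearson interval 3.27% to 12.9%) and 8.33% in the CR pool (15 of 180, 4.74% to 13.4%). In AL mitochondria its share was 11.5%, 24.5% and 27.7%, and in CR mitochondria 15.4%, 14.8% and 18.3%. All 6 mitochondrial shares lay above both pools, although the interval of AL replicate 1 (6.72% to 18.0%) overlapped those of the pools. The rarer arm took a larger share in all 6 mitochondrial libraries than in both pools in 26 of 110 hairpins with both arms tested (23.6%), and a smaller share in 21 (19.1%). Between the diets the mean share in mitochondria was 21.2% ± 8.59 (SD, n = 3) with AL feeding and 16.2% ± 1.85 (SD, n = 3) with CR. The difference was -5.09 percentage points (p = 0.4, exact permutation test, two-sided; 3 against 3 libraries cannot go below 0.1). It was -9.96 points without AL replicate 1 and -1.84 points without AL replicate 3.

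**Figure D3:**
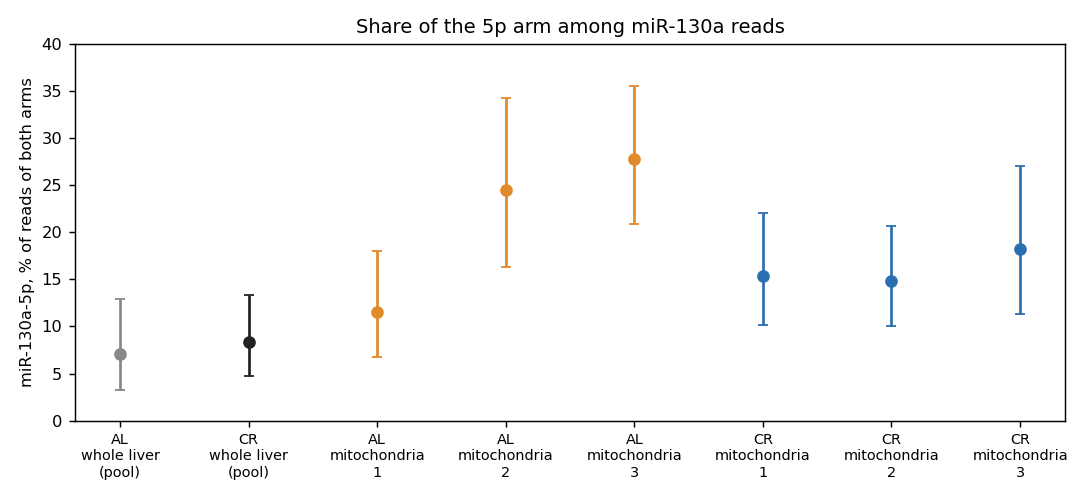
Share of the 5p arm among miR-130a reads (%, axis from 0) in each library, with exact 95% intervals for counting error. The pools lie at 7.03% and 8.33% and the mitochondrial libraries between 11.5% and 27.7%, with AL and CR overlapping.

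miR-130b-3p and miR-301a-3p, the other carriers of the seed, were near the limit of detection. miR-130b-3p had 2 reads in the AL pool and 1 in the CR pool, 0, 2 and 1 in AL mitochondria and 0, 2 and 0 in CR mitochondria. miR-301a-3p had 1 and 2 reads in the pools and a single read in mitochondria, in CR replicate 1. A count of 0 in a mitochondrial library allows up to 1.90 to 2.80 RPM, which is 3 reads there. Summed over libraries, the ratio of the 6 mitochondrial libraries to the 2 pools was 1.27 (95% exact interval 0.247 to 8.17) for miR-130b-3p and 0.254 (0.00484 to 3.16) for miR-301a-3p, so neither a rise nor a fall was detectable at this depth. The pools gave a CR to AL ratio of 0.375 (0.00636 to 7.20) for miR-130b-3p and of 1.5 (0.0781 to 88.5) for miR-301a-3p. The order of levels was miR-130a-3p, then miR-130a-5p, then these 2, whose ranges over the libraries overlapped (0 to 1.83 RPM for miR-130b-3p and 0 to 0.833 RPM for miR-301a-3p).

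The 5p arms of those hairpins had their reads mostly in the pools. miR-301a-5p had 4 reads in the AL pool and 12 in the CR pool but 1 read in 7450201 mitochondrial reads, a mitochondria to pool ratio of 0.0476 (95% exact interval 0.00113 to 0.306). miR-130b-5p had 2 and 3 reads in the pools and 0 in mitochondria, with an upper limit of 0.831 for that ratio. Both were below the filter, which a name reaching 1 RPM only in the 2 pools cannot pass, and were left out of the main tests. With no filter on low values, limma-trend gave log2 fold changes between the fractions of -1.69 (miR-301a-5p, adjusted p = 0.0120) and -0.91 (miR-130b-5p, adjusted p = 0.00537). In mitochondria miR-130b-5p had 0 reads in every library and miR-301a-5p a single read, so these p-values hardly measure a scatter of replicates. Both fold changes rest on 0 to 12 reads per library, and 29 of 862 names were called higher and 110 lower there. miR-130b-3p (-0.05) and miR-301a-3p (-0.45) did not pass. The exact intervals of the 5p arms, like those of miR-130b-3p and miR-301a-3p, come from reads summed over libraries and cover counting error only, not the spread between replicates. In the pools the reads of miR-301a-5p outnumbered those of miR-301a-3p, the arm that carries the family seed, by 4 to 1 in AL and 12 to 2 in CR.

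The 5 relatives miR-19a-3p, miR-19b-3p, miR-148a-3p, miR-148b-3p and miR-152-3p carry the same run of bases shifted by 1 position in the seed, as these sequences with the seed in capitals show.
miR-19b-3p: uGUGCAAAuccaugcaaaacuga
miR-148a-3p: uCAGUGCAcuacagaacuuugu
miR-148b-3p: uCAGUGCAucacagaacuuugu

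The seed of miR-19, a part of the growth-promoting miR-17-92 cluster, is GUGCAAA, and that of miR-148 and miR-152, which target the DNA methyltransferase DNMT1, is CAGUGCA. Against whole liver 1 of the 5 was higher in mitochondria, 1 was lower and 3 did not pass (median log2 fold change 0.22, against -0.31 for all 417). miR-19b-3p was higher in mitochondria, where it ranged from 561 to 1085 RPM against 202 (AL) and 197 (CR) RPM in whole liver (log2 fold change 1.90, SE 0.32, adjusted p = 0.000153, limma-trend). miR-148b-3p was lower there, ranging from 240.0 to 959 RPM against 1343 (AL) and 1618 (CR) RPM in whole liver (log2 fold change -1.53, SE 0.37, adjusted p = 0.00363), and lost the call within AL alone (-0.94, adjusted p = 0.178). The liver-abundant miR-148a-3p, at 108300 and 199930 RPM in the pools, had -0.46, miR-19a-3p 0.42 and miR-152-3p 0.22, with adjusted p of 0.418, 0.421 and 0.623. With diet none of the 5 passed (median -0.03, against -0.17 for all 417). miR-148b-3p had the smallest p (log2 fold change -0.91, adjusted p = 0.292), and for miR-19b-3p (-0.03) the sign changed with the scaling.

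**Figure D4:**
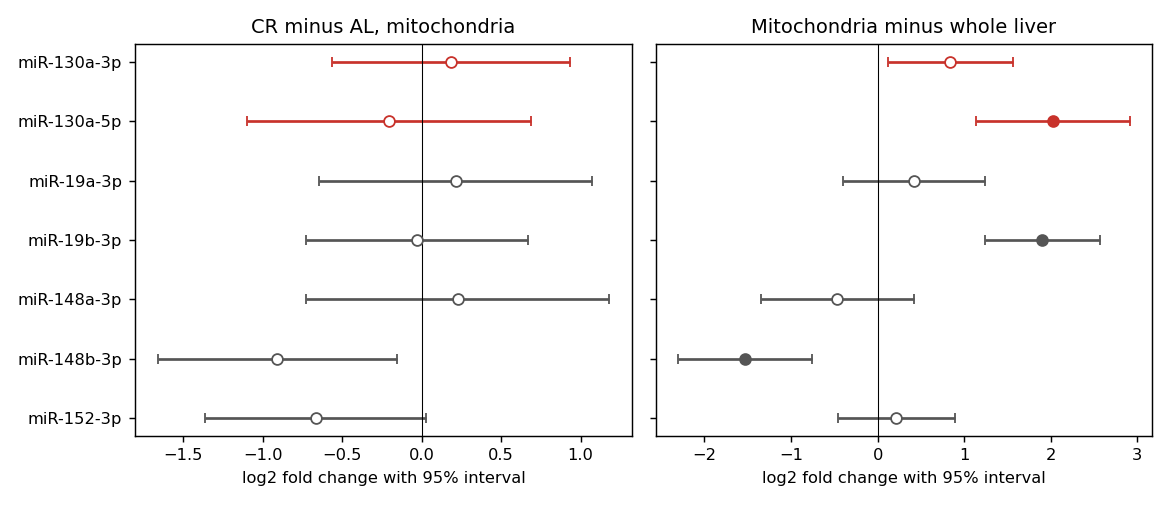
Log2 fold changes (limma-trend) of the tested miR-130a arms (red) and the relatives with a shifted seed (grey), with 95% intervals not adjusted for the number of names; filled points have an adjusted p below 0.05. No point is filled for diet, and miR-130a-5p, miR-19b-3p and miR-148b-3p are filled for fraction.

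Other miRNAs known to act on cholesterol transport, as miR-130b does, were taken as a list of 9 (miR-33-5p, miR-128-3p, miR-148a-3p, miR-27a-3p, miR-27b-3p, miR-144-3p, miR-185-5p, miR-96-5p and miR-223-3p). With diet in mitochondria none of the 9 passed in limma-trend (median log2 fold change -0.24, against -0.17 for all 417). The smallest p belonged to miR-96-5p (1.67, adjusted p = 0.110), which edgeR called (1.93, adjusted p = 0.0413), miR-185-5p (-0.99, adjusted p = 0.167) and miR-27b-3p (-0.57, adjusted p = 0.522). Against whole liver 3 of the 9 were lower in mitochondria and none was higher (median -0.76), where 21.6% of all 417 names were called lower and 10.6% higher (median -0.31). The 3 were miR-27b-3p (-1.96, adjusted p = 0.000153), miR-128-3p (-1.52, adjusted p = 0.00826) and miR-96-5p (-1.35, adjusted p = 0.0301). miR-27b-3p passed in all 19 alternatives. miR-128-3p lost the call with miR-122 left out of the total (adjusted p = 0.0624) and within AL alone (0.245). miR-96-5p lost it in 9 of 19, among them TMM factors (0.142), DESeq2 size factors (0.0925) and no filter on low values (0.0570).

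Markers of other cell types also moved between the fractions, and their part in the miR-130a result was not tested. The 6 leukocyte and Kupffer cell miRNAs summed to 710 to 1029 RPM in whole liver and 2959 to 11012 RPM in mitochondria, a sum made up mostly of miR-146a-5p, the 1 of 6 called higher. The list's median log2 fold change was -0.56. miR-142a-5p, miR-150-5p, miR-155-5p and miR-223-3p had values from -1.28 to -0.40, and miR-142a-3p had 0.46. None of these passed. Between the diets in mitochondria miR-146a-5p did not overlap, at 7609 to 10740 RPM with AL and 2763 to 4626 RPM with CR. It did not pass (log2 fold change -1.43, adjusted p = 0.0729, limma-trend), nor did any of the other 5. Of those, miR-150-5p had 1.02, and miR-142a-5p, miR-223-3p, miR-142a-3p and miR-155-5p had -0.92, -0.56, -0.42 and -0.02. The list median for diet was -0.49, against -0.17 for all 417. In CR mitochondria miR-150-5p stood at 73.5 RPM in replicate 2 against 20.0 and 25.2 RPM in replicates 1 and 3. The 5 stellate cell and fibroblast miRNAs summed to 14443 to 15573 RPM and 25517 to 47282 RPM, again mostly 1 name, miR-143-3p, which was called higher, while miR-199a-5p and miR-145a-5p were called lower (list median -0.16). The endothelial pair, relevant since miR-130a is known from endothelium, summed to 14978 to 19607 RPM in whole liver and 6694 to 18066 RPM in mitochondria, with miR-126a-3p lower on the deposited scale. Bile duct miRNAs summed to 764 to 784 RPM and 240 to 499 RPM (2 of 5 lower), and erythroid miRNAs to 40.7 to 73.1 RPM and 41.5 to 75.8 RPM (0 of 3 called). The upper ends of the endothelial and bile duct ranges in mitochondria came from CR replicate 2. The erythroid marker miR-486b-5p was not listed in any library, and all other markers of these 5 cell types had reads in all 8 libraries. None of the 4 hepatocyte miRNAs passed between the fractions. With diet 1 marker passed in these lists, the stellate cell miRNA miR-199a-3p, which was lower under CR. It was the 1 name called lower of all 417, and no name was called lower when any single mitochondrial library other than AL replicate 1 was left out. For diet the rest of the stellate list had -1.25 (miR-199a-5p, adjusted p = 0.0732, limma-trend), -0.78 (miR-214-3p), -0.39 (miR-143-3p) and -0.30 (miR-145a-5p). None of these passed, and the list median was -0.78, against -0.17 for all 417. The pancreas list, with 2 of 4 members tested, had no call.

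Over the 8 libraries the levels of miR-130a-3p ran most closely with those of miR-345-5p (Pearson's r of log2(RPM + 1) 0.92), miR-26a-2-3p (0.89) and miR-29c-3p (0.85), out of 231 names with a mean of at least 10 RPM. Those of miR-130a-5p ran most closely with miR-500-3p (0.96), miR-29c-3p (0.95) and miR-192-3p (0.95). miR-29c-3p stood at 129 to 166 RPM in whole liver and 553 to 828 RPM in mitochondria, and within the 6 mitochondrial libraries its r was 0.32 with miR-130a-3p and 0.28 with miR-130a-5p. Within those 6 libraries miR-345-5p and miR-26a-2-3p had an r of 0.89 and 0.75 with miR-130a-3p, and miR-500-3p and miR-192-3p an r of 0.83 and 0.57 with miR-130a-5p. The arms of miR-130a themselves had an r of 0.71 over 8 libraries and -0.58 within the 6 mitochondrial ones. These are descriptions over few libraries. Differences in scale and diet enter each r, and over the 8 libraries so does the difference between the fractions.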

How the data were processed

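The deposited values are RPM, which the authors scaled to a total of 1000000 per library over the listed names (the header word is tpm, but length plays no part). Bowtie mapped the reads to mm9, per the submitters' processing notes; the rules for mismatches, multiple hits and strand are not given in the sources used here. Some names had the same mean level in mitochondria, such as miR-142a-3p and miR-142b (97.3 RPM) or miR-1a-3p and miR-1b-5p (70.2 RPM). A read may therefore count under more than 1 name, in the totals too. A name without a row was set to 0. Dividing each library by its lowest RPM gave whole reads for 100% of the deposited values (within 0.01 read), and these were used as recovered reads.

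Names with at least 1 RPM in at least 3 of 8 libraries were fitted with limma-trend (limma 3.58.1, R 4.3.3) on log2(RPM + 1), with Benjamini-Hochberg adjustment over all 417 and a threshold of 0.05. The code was first run on simulated counts with a fixed spread, which cannot show how the fit performs at the spread of these replicates. On the recovered reads, edgeR 4.0.16 (quasi-likelihood, TMM) called 10 names for diet in mitochondria, 167 between fractions and 0 for the interaction; DESeq2 1.42.0 and limma-voom were run as well. Exact intervals and permutations used scipy 1.17.1, and figures matplotlib 3.10.9. Replicates of a group differed by far more than sampling noise. All groups came from the labels, and no library was left out of the main tests.

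The members, the lists (shifted seed, cholesterol transport, cell types) and the tests were chosen with earlier results of these data known. Named were the members, the names of their hairpins and seed, the shifted-seed relatives, list members past the threshold or up to 3 by p, and the 3 names most like each miR-130a arm over the 8 libraries; cell type markers, miR-375-3p and the within-mitochondria correlations were named after their values were seen. Sequences come from the deposited tables and RefSeq.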

Additional observations from a re-analysis of the deposited data

How the results depend on the processing

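For diet in mitochondria 19 alternatives were run and neither miR-130a arm passed in any (limma-trend, edgeR, DESeq2 or limma-voom, adjusted p 0.631 to 0.999). The log2 fold change of miR-130a-3p ranged from 0.02 to 0.50, and that of miR-130a-5p changed sign with TMM factors (0.00305), DESeq2 size factors (0.0224), limma-voom (0.0848) and edgeR (0.0198) and without AL mitochondria replicate 3 (0.0340; -0.459 to 0.0340 without single libraries). That of miR-19b-3p turned to 0.19 with TMM factors, 0.21 with DESeq2 size factors, 0.12 with miR-122 left out, 0.29 with limma-voom, 0.22 with edgeR, 0.14 with DESeq2, 0.23 without AL replicate 2 and 0.03 without CR replicate 3 (-0.244 to 0.23 without single libraries), and that of miR-148a-3p to -0.0788 without CR replicate 2 (-0.0788 to 0.445). The count of 2 calls became 6 with no filter, 4 with a filter of 10 RPM or without miR-122, 5 with TMM factors, DESeq2 size factors or limma-voom, 10 with edgeR, 9 with DESeq2 and 0 to 5 without single libraries. A replicate block gave 5 calls (1 higher, 4 lower), with 0.18 (adjusted p = 0.759) for miR-130a-3p. The numbers share no stated origin, and same-numbered libraries deviated together with r of 0.36, 0.09 and 0.10, so they were not treated as pairs. A filter on the mitochondrial libraries alone, added after the data were seen, left 391 names and 2 calls.

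Between the fractions miR-130a-5p passed in 18 of 19 alternatives (1.45 to 2.70) and not within CR alone (1.79, adjusted p = 0.0893). miR-130a-3p passed in 6 of 19: TMM factors (1.26), DESeq2 size factors (1.15), miR-122 left out (1.26), limma-voom (1.29), edgeR (1.30) and DESeq2 (1.18), and its adjusted p ranged from 0.00239 to 0.341. The 134 calls became 57 within AL alone and 76 within CR alone, where miR-152-3p had -0.16. Other scalings moved the split of 44 higher and 90 lower to 62 and 72 (DESeq2 size factors), 65 and 63 (miR-122 left out), 103 and 73 (limma-voom), 97 and 70 (edgeR) and 78 and 71 (DESeq2). The interaction gave 0 calls except with no filter, where 129 of 862 names were called (the cause was not tested); miR-130a-3p turned to -0.0308 without AL mitochondria replicate 2 (-0.0308 to 0.339 without single libraries). The CR to AL pool ratio, which has no test, ranged from 1.04 to 1.16 for miR-130a-3p and from 1.20 to 1.40 for miR-130a-5p. The diet difference in the arm share ranged from -9.96 to -1.84 points without single libraries. Its permutation test cannot go below 0.1 even with all 6 mitochondrial libraries, so it could not pass. Depth limits miR-130b-3p and miR-301a-3p to counts of 0 to 2 reads.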
